A study of Caenorhabditis elegans with 2 samples.

Results

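Tagged EGL-13, a SoxD family protein of the worm Caenorhabditis elegans, was recovered at 288 places inside autosomal genes but outside their exons and promoter windows, 286 of them in an annotated intron. They are called intron sites here. These 288 sites are those of the deposited reproducible (optimal) list that lie off chromosome X, have their summit inside a protein-coding gene body, and have it in no protein-coding exon and in no promoter window, which reaches from 1000 bp before to 200 bp after the 5′ end of any protein-coding transcript. They are 288 of 1803 autosomal sites (15.97%, 95% Wilson interval 14.4 to 17.7) and of 2294 sites in all. Promoter windows held 1087 of the autosomal sites (60.3%), intergenic stretches 395 (21.9%) and exons 33 (1.83%).

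Proteins with a SOX HMG box bend DNA and are known to recognise short sequences such as AACAAT. EGL-13 is known for roles in gas-sensing neurons and in the uterus. Most introns of the worm are short, while long introns, often near the 5′ end of a gene, are known to hold enhancers, start sites of shorter transcripts and genes for noncoding RNAs.

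The data were 2 chromatin immunoprecipitation libraries of whole hermaphrodite L1 larvae of strain GOU883, labelled biological replicates 3 and 4. The labels describe a transgenic line with an insertion that targets egl-13 and with EGL-13 carrying a GFP-FLAG tag at its C-terminus. An antibody against GFP was used on sonicated chromatin. Larvae were taken 6 h after synchronization, which was by starvation at the L1 stage after bleaching. There was 1 group, so the comparisons below are between kinds of sites within the same libraries, and whole animals do not show in which cells a site was recovered. Tests run over sites, which share both libraries, so their p-values measure the spread between sites and not between animals. Positions are 1-based on ce11, which is WBcel235, and gene models are those of Ensembl release 115.

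The bases within 50 bp of the summit are shown for the 6 strongest intron sites that hold GAGAGA, the fixed motif with the largest rise at these summits, on chromosomes other than I. All are given on the plus strand, and capitals mark GAGAGA or GACGCA on either strand, with overlapping copies run together. The letters were read from the RefSeq genome of the same build.
pqn-41 (chrIII:1921349-1921449): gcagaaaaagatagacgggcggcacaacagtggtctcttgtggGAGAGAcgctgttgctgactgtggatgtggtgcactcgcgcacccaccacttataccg
gei-4 (chrIII:349873-349973): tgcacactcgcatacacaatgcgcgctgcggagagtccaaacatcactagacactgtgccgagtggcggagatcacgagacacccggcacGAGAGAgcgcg
daf-14 (chrIV:10252451-10252551): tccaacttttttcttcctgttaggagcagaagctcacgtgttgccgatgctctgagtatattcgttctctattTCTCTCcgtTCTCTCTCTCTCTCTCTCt
W06H8.6 (chrV:6224690-6224790): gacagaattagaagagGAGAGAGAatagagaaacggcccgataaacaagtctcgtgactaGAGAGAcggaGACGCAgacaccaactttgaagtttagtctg
epg-9 (chrIV:2602112-2602212): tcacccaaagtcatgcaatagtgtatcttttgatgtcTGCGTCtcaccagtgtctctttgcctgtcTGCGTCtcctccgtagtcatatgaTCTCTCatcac
daf-5 (chrII:14040489-14040589): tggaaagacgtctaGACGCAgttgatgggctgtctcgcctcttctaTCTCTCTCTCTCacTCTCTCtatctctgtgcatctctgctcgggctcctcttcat

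The daf-14 window held 8 copies of GAGAGA on the minus strand, all but 1 of them overlapping in a run of alternating C and T, and the daf-5 window held 5. The pqn-41, gei-4 and epg-9 windows held 1 each, so a long repeat was not common to the 6 windows. The W06H8.6, epg-9 and daf-5 windows also held GACGCA, which epg-9 had in 2 copies.

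For comparison, 2 of the 3 strongest sites without GAGAGA are shown, which are also among the 5 strongest intron sites of all.
Y111B2A.12 (chrIII:12612605-12612705): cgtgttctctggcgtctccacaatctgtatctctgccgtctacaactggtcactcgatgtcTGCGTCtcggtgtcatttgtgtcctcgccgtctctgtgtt
pqn-41 (chrIII:1925315-1925415): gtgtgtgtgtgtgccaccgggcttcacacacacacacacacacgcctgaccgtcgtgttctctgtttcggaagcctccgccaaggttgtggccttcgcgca

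The Y111B2A.12 window held GACGCA. The second pqn-41 window held neither motif, and its GC content of 60.4% was above the median of the intron sites (45.5%).

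Read depth is unknown from the files used here, and each site has only a signal value, assigned by the authors' peak caller on a scale that is not stated. All 2294 optimal regions were the 2294 strongest of the 30000 pooled regions, so recovery in each replicate's own list is the measure of agreement here. A site was counted as found in a replicate where that replicate had a summit within 100 bp, and as among its strongest where that summit belonged to its 2294 strongest regions.

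Intron sites were weaker than promoter sites. Their signal values ran from 65.5 to 618 with a median of 92.5 and quartiles of 76.2 and 131. Promoter sites had a median of 113, and the ratio of medians was 0.818 (Mann-Whitney test, n = 288 and n = 1087, adjusted p = 1.87e-08 over 11 comparisons). The ratio was 0.825 among the strongest regions of replicate 4 alone and 0.821 among those of replicate 3 alone. Intergenic sites had a median of 92.6, and the difference from intron sites was not past the threshold of 0.05 (Mann-Whitney test, n = 395 intergenic sites, adjusted p = 0.874).

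The share of autosomal regions that lay in introns rose as strength fell. Introns held 9.70% (95% Wilson interval 7.18 to 13.0) of the autosomal regions ranked 1 to 500, 15.7% of ranks 501 to 1000, 17.7% of ranks 1001 to 1500 and 19.3% of ranks 1501 to 2294. Below the optimal list the share was 21.1% at ranks 2295 to 5000 and 27.6% at ranks 20001 to 30000. Over the same steps the share in promoter windows fell from 73.6% to 29.5%.

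**Figure D1:**
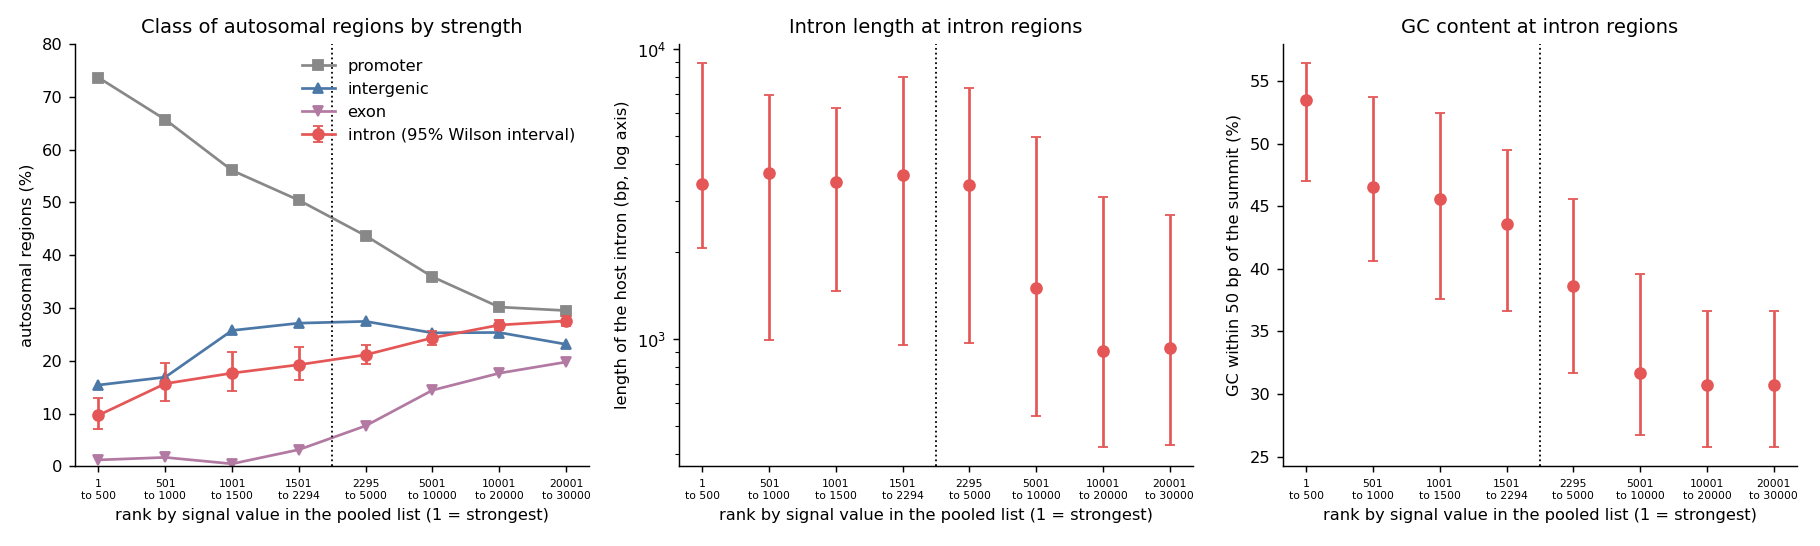
The left panel plots the percentage of autosomal pooled regions in each class against rank by signal value, with 95% Wilson intervals for introns, and the other panels plot the median and quartiles of host intron length (bp, log axis) and of GC content (%) at intron regions. The dotted line marks the end of the optimal list. The intron share rose from 9.70% to 27.6%, median intron length was 3393 to 3747 bp down to rank 5000 and then fell, and GC content fell from 53.5% to 30.7%.

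The strongest intron site lay in intron 3 of 9 of Y56A3A.7, 458 bp from the 5′ end. Its pooled signal value was 618, with 428 and rank 8 in replicate 3 and 176 and rank 42 in replicate 4. Next came a site in pqn-41, which encodes a glutamine-rich protein, with 561 pooled, 376 in replicate 3 and 184 in replicate 4. The Y111B2A.12 site followed with 552 pooled, 407 in replicate 3 and 150 in replicate 4. The T28F4.1 site had 548, a second pqn-41 site 533, and the dhc-4 site 441, in intron 31 of this dynein heavy chain gene.

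The other 14 of the 20 strongest lay in zfp-1 (2 sites, 413 and 297), which encodes an AF10-like chromatin protein, in gei-4 (397), in daf-14 (384), which encodes a Smad of the dauer TGF-β pathway, and in F58G1.7 (352). They continued with W06H8.6 (322), mef-2 (306), a MADS-box factor gene, epg-9 (292), an autophagy gene, and daf-5 (291), which encodes a Ski/Sno relative of the dauer TGF-β pathway. The last of them were Y71G12B.31 (287), ppfr-1 (270), ints-8 (264), an Integrator subunit gene, pxn-1 (238), a peroxidasin gene, and mpk-1 (237), which encodes the ERK MAP kinase. Each of the 20 was near the top of both replicates, with ranks no lower than 289 in replicate 3 and 340 in replicate 4. They were picked by pooled signal values, which draw on both replicates, so these ranks are a description and no independent check. Of the 20, 9 lay on chromosome III, 10 held GAGAGA and 7 had a noncoding RNA gene within 200 bp. Over all 288 intron sites the counts were 74, 83 and 74 in the same order.

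Weaker intron sites were found less evenly in the replicates. Of the 288, 173 (60.1%, 95% Wilson interval 54.3 to 65.6) were among the strongest regions of both. Another 69 were so in replicate 3 alone, 41 in replicate 4 alone and 5 in neither. The 5 lay in W05H12.1, tir-1, nhr-66, pkg-2 and Y56A3A.7, named after their values were seen, with pooled signal values from 66.4 to 72.5. The share in both was 68.2% of promoter sites, a difference of −8.10 percentage points (Fisher's exact test, adjusted p = 0.0209), and 60.8% of intergenic sites (adjusted p = 0.874). In the stronger 50% of the list the shares were 92.4% in both classes, and with summits matched within 200 bp the difference from promoter sites was −5.95 points and not past the threshold (Fisher's exact test, adjusted p = 0.0927). No replicate 3 summit lay within 100 bp of 5 intron sites and no replicate 4 summit of 16. Across the 267 sites with a summit in both, Spearman's rho between the signal values was 0.485, and Pearson's r of their log2 values 0.613, a description of sites that were selected on pooled strength.

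**Figure D2:**
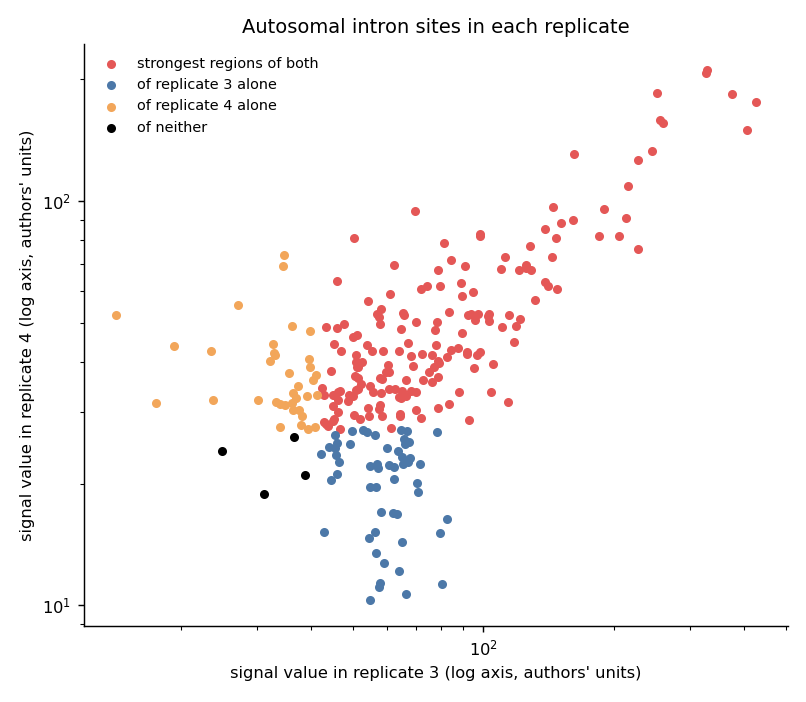
Each point is an autosomal intron site with a summit in both replicates, placed by its signal value in replicate 3 and replicate 4 (both axes logarithmic, units of the authors' peak caller). Colours give the replicates in which it was among the 2294 strongest regions. The strongest sites by pooled values, which draw on both replicates, lay high in both. Of the 288 sites, 69 were among the strongest of replicate 3 only and 41 of replicate 4 only.

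Sites at the weak end of the optimal list and the regions just outside it had signal values close to each other. The 3 weakest intron sites lay in kcnl-2, a potassium channel gene (66.1), sel-8, a Notch co-activator gene (65.6), and nlp-47, a neuropeptide-like gene (65.5). Their ranks in replicate 3 and replicate 4 were 6527 and 1666, 2095 and 4294, and 3919 and 1659. The 3 strongest autosomal intron regions left outside lay in ZC455.1 (65.3), mnk-1 (65.1) and C17E4.10 (64.8).

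Of the 288 sites, 286 lay in an intron of an annotated protein-coding transcript. The other 2 had their summit within the bounds of F28F8.7 and glb-19, but in no intron of a protein-coding transcript of these genes, and they enter no count of introns. The 286 lay in 233 introns of 207 genes, and 3 had more than 1 host gene, in which case the longest transcript's intron was used. Of the 288 regions, 63 (21.9%) reached an exon although the summit did not. Outside the promoter windows, 117 summits (40.6%) were still within 1500 bp of a protein-coding 5′ end, counted to either side of it. That share was not compared with weaker regions or with eligible intron bases.

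Intron sites lay mostly in long introns. The median host intron was 3651 bp long, with quartiles of 1126 and 7773 bp. In the 5664 weaker autosomal intron regions outside the optimal list the median was 1030 bp, so the ratio of medians was 3.54 (Mann-Whitney test, n = 286 and n = 5664, adjusted p = 3.41e-23). That difference was not there against the 363 intron regions just below the optimal list, that is, among the next 2294 pooled regions, whose median was 3378 bp (ratio 1.08, Mann-Whitney test, n = 363, adjusted p = 0.472). By rank, the median was 3393 bp at ranks 2295 to 5000, 1496 bp at ranks 5001 to 10000 and 912 bp at ranks 10001 to 20000. Long host introns were common to the optimal sites and the regions that follow them in rank.

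Relative to the eligible intron bases, those that a summit of this class could fall on, density rose with intron length up to 10000 bp. There were 5.45 sites per Mb of such bases in introns under 500 bp, 6.50 in introns of 500 to under 2000 bp, 20.3 at 2000 to under 5000 bp, 38.5 at 5000 to under 10000 bp and 37.2 in introns of 10000 bp or more. Introns of 5000 bp or more held 116 of the 286 sites. Weaker regions were spread more evenly, at 252, 218, 247, 356 and 364 per Mb in the same order. The longest host introns were those of unc-103, an ERG-type potassium channel gene (23892 bp, 2 sites with signal values of 83.2 and 68.9), kin-1, the catalytic subunit gene of protein kinase A (21230 bp, 89.6), and crh-1, which encodes the CREB factor (18615 bp, 3 sites).

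First introns held 86 of the 286 sites (30.1%, 95% Wilson interval 25.05 to 35.6), counted in the longest transcript that has the intron. Weaker intron regions were in first introns in 25.5% of cases, and the difference of 4.58 percentage points was not past the threshold (Fisher's exact test, adjusted p = 0.151). Against the regions just below the list, with 34.7%, its sign turned (−4.64 points, Fisher's exact test, adjusted p = 0.374). It was past the threshold when each site took its lowest intron number in any transcript, with 44.1% against 34.9% (Fisher's exact test, adjusted p = 0.00344), and without sites near tRNA, snoRNA or snRNA genes (32.5% against 25.7%, adjusted p = 0.0291). First introns make up 20.3% of the eligible intron bases, so they had 18.7 sites per Mb, against 14.2 in intron 2, 7.70 in intron 3, 13.2 in introns 4 and 5 and 9.51 in later introns. The median signal value was 90.1 in first and 94.2 in later introns. Within the intron, 128 sites (44.8%) lay in the middle part when it was cut into 3 equal parts, against 34.2% of weaker regions.

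**Figure D3:**
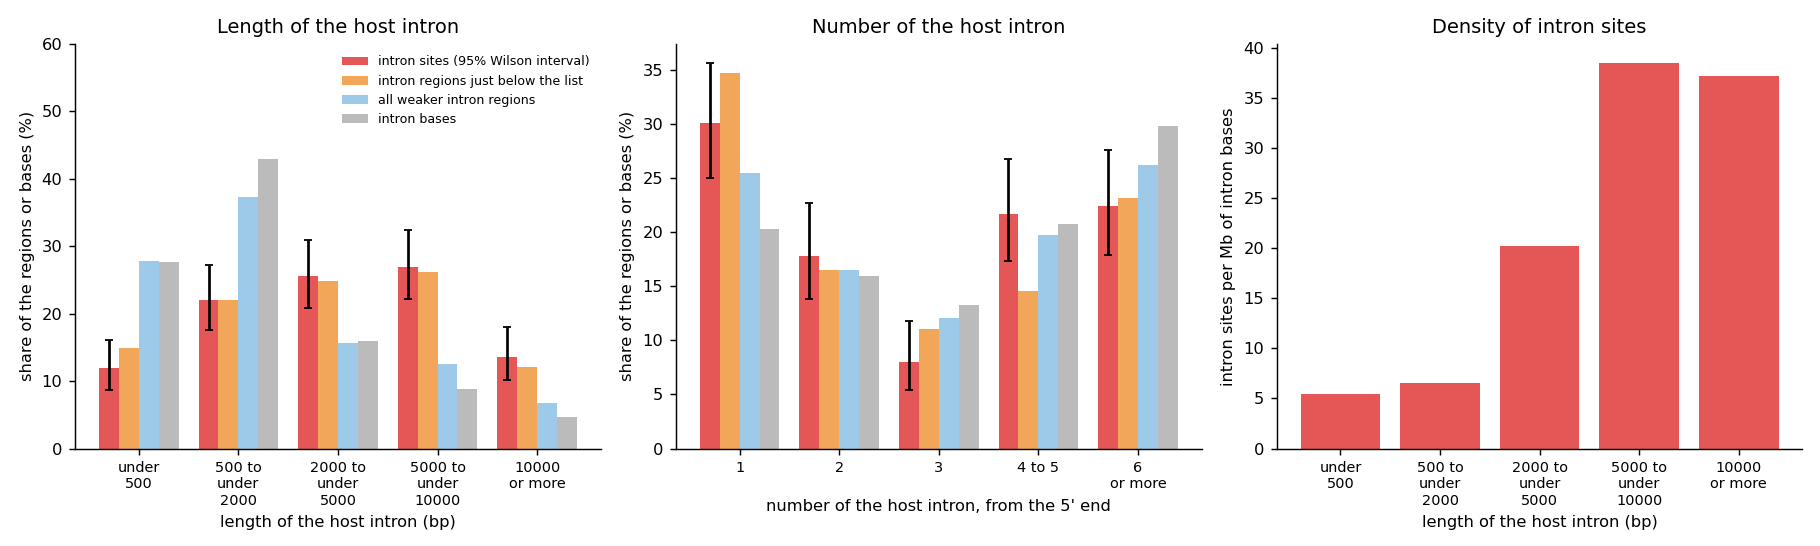
Bars give the percentage of intron sites (with 95% Wilson intervals), of the 363 intron regions just below the optimal list, of all weaker intron regions and of eligible intron bases by intron length (bp) and by intron number, and the right panel gives sites per Mb of eligible bases by length. Introns of 5000 bp or more had over 37 sites per Mb and those under 2000 bp fewer than 7, and the length profile of the regions just below the list lay close to that of the sites.

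By chromosome, the 288 sites were 70 on I, 52 on II, 74 on III, 54 on IV and 38 on V. Per Mb of eligible intron bases this was 14.01, 13.7, 16.6, 11.6 and 7.78 sites in an annotated intron, lowest on V. Chromosome X, whose 81 intron sites are not among the members, had 17.7.

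Most host genes held a single site, and others held several. How many would hold several from intron length alone was not tested. A single site was found in 161 of the 207 host genes, 27 genes had 2, and 19 genes had 3 or more and together held 71 sites. Of these 71, 49 (69.0%) were among the strongest of both replicates, against 173 of all 288 intron sites (60.1%). That difference was not tested. The 35 introns with at least 2 sites held 88 sites. The 719 genes with most eligible intron bases, 5% of the 14382 genes with any, held 52.8% of the 286 sites and 35.6% of the eligible bases. Neighbouring sites are not independent: 12 regions overlapped another member, and the closest summits were 199 bp apart.

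ppfr-1 (WBGene00008878, chrI:9364099-9389982, minus strand), which encodes a regulatory subunit of protein phosphatase 4, held 7 sites, 6 of them in its intron 5 of 10404 bp. From the 5′ end, their pooled signal values were 95.3, 198, 270, 155, 106, 131 and 93.7. The strongest had 185 in replicate 3 and 81.8 in replicate 4, and 5 of the 7 were among the strongest of both replicates. The site at 95.3 had rank 816 in replicate 3 and rank 21290 in replicate 4. Noncoding RNA genes lay within 200 bp of 5 of the 7. No optimal site lay in a promoter window of ppfr-1.

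vhp-1 (WBGene00006923, chrII:5323276-5340829, plus strand), which encodes a MAP kinase phosphatase, held 6 sites, 4 in intron 1 of 8201 bp and 2 in intron 4. Their pooled signal values were lower, from 69.3 to 132, and 2 of the 6 were among the strongest of both replicates. In replicate 3, 2 of the 6 had no summit within 100 bp, and the site at 69.3 pooled had rank 22251. Promoter sites of 83.0 and 88.5 lay at internal 5′ ends of shorter vhp-1 transcripts.

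pqn-41 (WBGene00004128, chrIII:1905958-1939570, plus strand) held 5 sites within 1 intron, number 14, of 10372 bp. From the 5′ end their pooled signal values were 561, 201, 188, 533 and 222. Replicate 3 had 376, 129, 98.2, 329 and 139 at them, and replicate 4 had 184, 67.5, 81.9, 211 and 85.3. All 5 were among the strongest of both replicates, and the sites at 561 and 533 were the highest in each. An internal 5′ end of pqn-41 lies in the same intron, with promoter sites of 110 and 85.7, and the site at 561 was 1828 bp from it. At the 3′ end of the intron lie 2 further 5′ ends, and the site at 222 was 1081 bp from the nearer, just past the 1000 bp of the promoter window.

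C17E4.6 (WBGene00007645, chrI:9422556-9431120, plus strand) held 5 sites in intron 5, of 6110 bp, with pooled signal values from 71.2 to 117, and a promoter site of 197 at its 5′ end. Its 2 most upstream sites overlapped, and at the first of them replicate 4 had no summit within 100 bp while replicate 3 had rank 869.

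**Figure D4:**
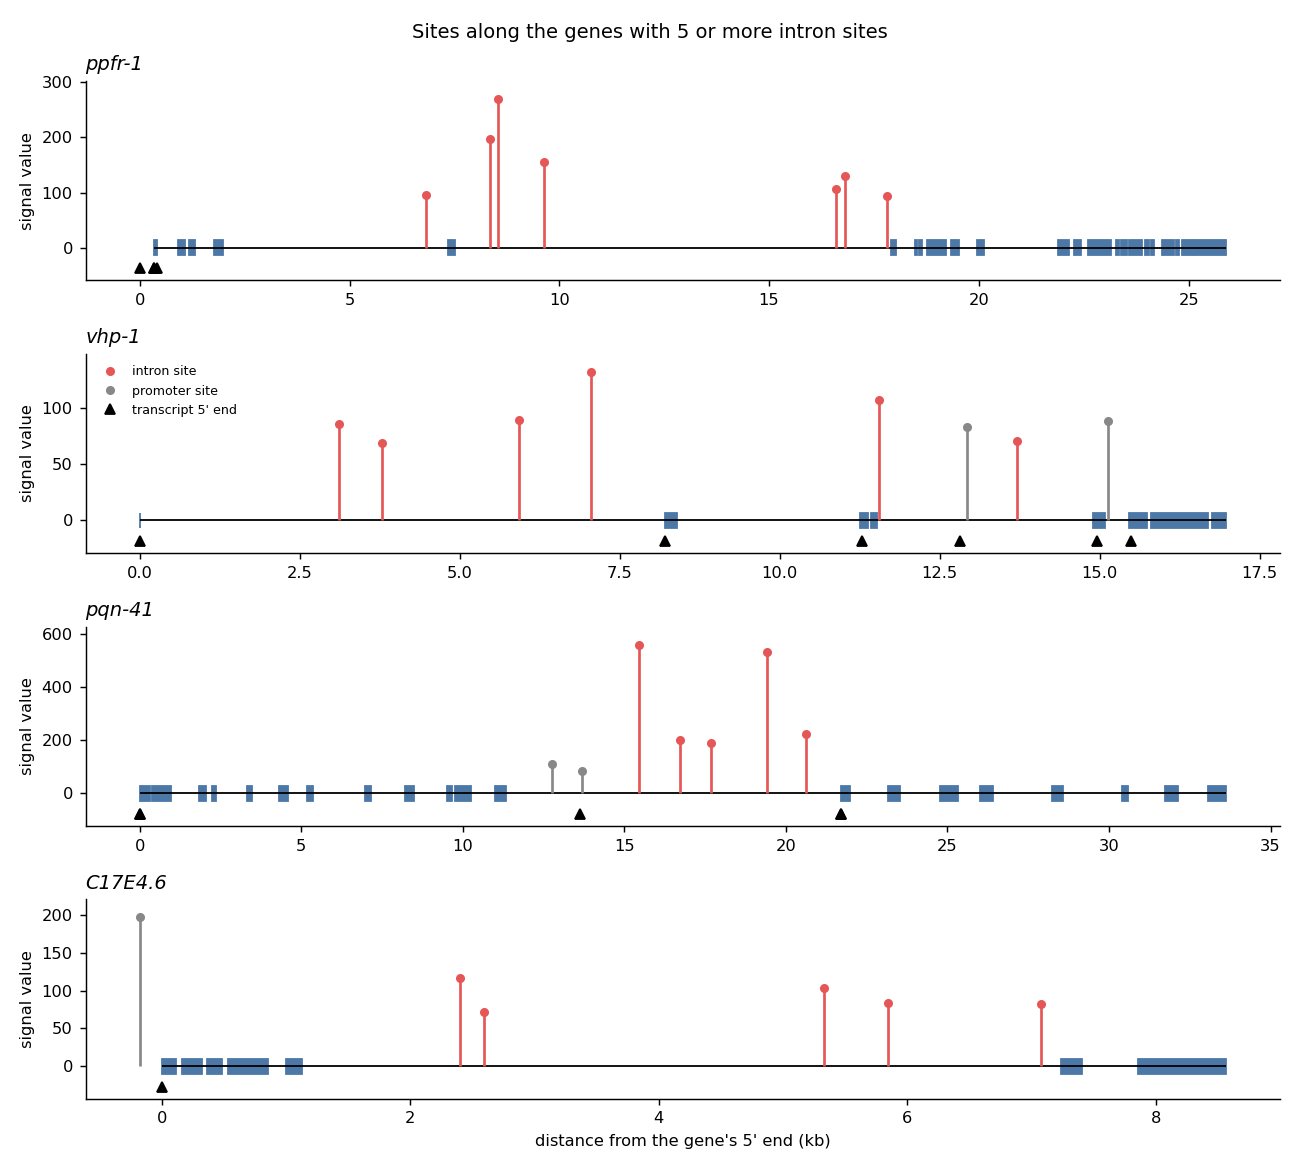
Each panel shows 1 of the 4 genes with 5 or more intron sites: blue boxes are exons of the longest transcript, triangles the 5′ ends of all protein-coding transcripts, and stems the pooled signal value at each summit against distance from the gene's 5′ end (kb). The sites of pqn-41 and C17E4.6 lay in 1 intron each, and the 2 tallest stems of pqn-41 were 561 and 533.

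Y111B2A.12, daf-16 and crh-1 held 4 sites each. The 4 of daf-16, the FOXO factor of insulin signalling, had pooled signal values of 156, 91.0, 90.2 and 81.3, 3 of them in its intron 3 of 12401 bp. At the strongest, replicate 3 had 103 and replicate 4 had 51.9. The 4 of crh-1 ran from 66.8 to 102, and the weakest had rank 1549 in replicate 3 and rank 26047 in replicate 4. At Y111B2A.12, the other 3 sites, from 71.5 to 152, were much weaker than the first.

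The 12 genes with 3 sites were Y56A3A.7, zfp-1, daf-5, aakg-1 (a gamma subunit of AMP-activated kinase), let-526 (an ARID1-type SWI/SNF subunit), Y67D8A.2, unc-43 (CaMKII), W05H12.1, pac-1 (a RhoGAP), cct-5 (a chaperonin subunit), mbk-2 (a DYRK kinase) and pde-6 (a phosphodiesterase). Their strongest sites had signal values from 106 at pde-6 to 618 at Y56A3A.7. At zfp-1 the 3 were 413, 297 and 236 and all were among the strongest of both replicates. At unc-43, 1 of the 3 was.

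Some host genes had a promoter site too. Of the 207 host genes, 51 (24.6%) also had an optimal site in a promoter window of their own, as pqn-41, vhp-1, C17E4.6, daf-16 and zfp-1 did. Among all autosomal protein-coding genes the share was 8.46%, and among those with eligible intron bases 7.95%. This was not tested, and the share of host genes moves with the window, being 18.03% with one of 500 bp and 32.1% with one of 2000 bp. A gene with more annotated 5′ ends has more promoter windows, and hosts and other genes were not matched for this or for intron length.

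A noncoding RNA gene, other than a piRNA gene, lay within 200 bp of 74 intron summits (25.7%). The share was 5.103% at weaker intron regions (Fisher's exact test, adjusted p = 7.36e-28), 14.8% at those just below the list (adjusted p = 0.00192) and 14.5% at promoter sites (adjusted p = 4.08e-05). Intergenic sites had 26.6% (105 of 395), close to the intron sites, a comparison given with no test. Genes annotated as ncRNA made up most of them, at 52 sites, snoRNA genes lay at 16, tRNA genes at 15 and snRNA genes at 3. tRNA, snoRNA or snRNA genes, small structured RNAs of translation, RNA modification and splicing, lay at 34 sites (11.8%), against 6.84% of intergenic sites, 4.32% of promoter sites and 1.25% of weaker intron regions. Genes annotated as ncRNA lay at 18.1% of intron and 19.5% of intergenic sites.

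Sites at tRNA, snoRNA or snRNA genes lay in short introns, with a median of 446 bp against 3651 bp over all intron sites. The strongest was the dhc-4 site, with 252 in replicate 3 and 185 in replicate 4, at the snRNA gene R07E5.16 in an intron of 360 bp. The pxn-1 site, with 145 in replicate 3 and 96.6 in replicate 4, lay at the snoRNA gene ZK994.7 in an intron of 341 bp. The ints-8 site, with 161 in replicate 3 and 89.6 in replicate 4, lay within 200 bp of rpr-1, the RNA gene of RNase P, which is annotated as ncRNA. Of the 34 sites in introns under 500 bp, 61.8% had a noncoding RNA gene within 200 bp, against 14.7% of the 116 in introns of 5000 bp or more. Recovery at a gene inside an intron and recovery at the host gene cannot be told apart where the genes overlap.

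Intron summits were richer in GC than other intron regions. The median GC content within 50 bp of the summit was 45.5%. It was 31.7% at weaker intron regions (Mann-Whitney test, n = 288 and n = 5683, adjusted p = 2.15e-85) and 39.6% at those just below the list (adjusted p = 4.78e-12). Promoter sites had 46.5% (Mann-Whitney test, n = 1087, adjusted p = 0.348) and intergenic sites 45.5% (n = 395, adjusted p = 0.317). The promoter difference was past the threshold with 25 bp to each side, 47.1% against 50.98% (Mann-Whitney test, n = 288, adjusted p = 3.54e-05), and without sites near tRNA, snoRNA or snRNA genes, 44.6% against 46.5% (n = 254, adjusted p = 0.00420). Those 34 sites had a median of 57.4%. The windows 300 bp to the 5′ side of the intron summits had 35.6%, which stands beside every comparison of summits with flanks below, and the part of base composition in those comparisons was not tested. These flanking windows were not limited to introns and can hold exon bases. The lower quartile of the distance from summit to nearest exon was 213 bp.

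GAGAGA had the largest difference among 10 fixed motifs, searched for in the same windows on either strand. It lay at 83 of 288 summits (28.8%) and in 18 flanking windows (6.25%), with 78 sites that had it at the summit only and 13 in the flank only (exact McNemar test, adjusted p = 1.85e-11 over the 10 motifs). It was in 5.97% of weaker intron regions and in 4.00% of all 224401 windows of that length tiled over eligible introns. Promoter sites held it in 20.3% of cases (Fisher's exact test, adjusted p = 0.0152 over the 10 motifs), a difference not past the threshold without replicate 3, with only sites among the strongest of both replicates, with a promoter window of 2000 bp or within 25 bp of the summit (adjusted p from 0.129 to 0.684). Intergenic sites held it in 35.7% of cases.

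GAGAGA was uneven among the intron sites. It lay at 51.3% of the 39 sites ranked 1 to 500, and the share did not fall steadily after that. It was 25% at ranks 501 to 1000, 21.4% at ranks 1001 to 1500 and 27.8% of the 115 sites ranked 1501 to 2294. It lay at 33.6% of sites in introns of 5000 bp or more and at 5.88% of those in introns under 500 bp. Uninterrupted runs of alternating G and A, on either strand, reached 10 bases at 12 sites and 28 bases at most. On the 78 sites with the motif on 1 strand only, it was on the host gene's sense strand in 30 (38.5%, exact binomial test against equal use, p = 0.0535). By the same exact test it was past the threshold without replicate 3 (34.3%, p = 0.0139), with sites among the strongest of both replicates (31.8%, p = 0.0226) and with a promoter window of 500 bp (36.8%, p = 0.0178). It was not past the threshold without replicate 4, in the stronger 50% of the list or with a promoter window of 2000 bp. Nor was it without sites near tRNA, snoRNA or snRNA genes, within 25 bp of the summit or with only the strongest site of each host gene. In these settings the sense share was 36.1% to 39.7% (exact binomial test, p from 0.0505 to 0.188).

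GACGCA lay at 10.8% of intron summits and 2.08% of flanks, and at 18.7% of promoter summits. It is given as a description, since it was taken from a scan of the sites of this experiment. Sites with it had a median signal value of 149, and those without it 91.0.

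AACAAT, the sequence known for SOX proteins, was lower at intron summits than beside them. It lay at 15 summits (5.21%) and in 39 flanks (13.5%, exact McNemar test, adjusted p = 9.05e-04). Tiled intron windows held it in 11.3% of cases, promoter summits in 6.90% and intergenic summits in 4.81%. In the stronger 50% of the list, with 119 intron sites, the difference was −7.56 percentage points against −8.33 in the whole list, and not past the threshold (adjusted p = 0.0879, exact McNemar test). TGATAA was lower too, at 4.86% against 10.1%, and CACGTG, the core of an E-box, was higher, at 5.90% against 1.74% (exact McNemar test, adjusted p = 0.0338 for each). The TGATAA and CACGTG calls both ended with either replicate alone (adjusted p from 0.0720 to 0.253). The other 5 motifs were not past the threshold. The forkhead-type sequence TGTTTA lay at 7.29% of summits and 9.38% of flanks, the homeodomain-type TAATTA at 6.60% and 3.82%, and CCGCCC at 4.17% and 2.43%. The bZIP-type TGACGT lay at 6.94% and 5.56%, and the E-box CAGCTG at 2.08% of both.

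Over all hexamers, 2080 once each is joined with its reverse complement, 61 (2.93%) rose from flank to intron summit and 55 (2.64%) fell (exact McNemar test, adjusted p under the threshold over all hexamers). After GAGAGA, the smallest p among those that rose belonged to AGAGAG (25% of summits and 6.25% of flanks), which overlaps it, then to CTCTCC (17.7% and 3.13%) and to CGCAGA (11.5% and 1.04%). The smallest p among those that fell belonged to AAAATT (11.5% of summits and 38.2% of flanks), then AAAAAT (19.8% and 46.5%) and AAATTT (5.21% and 26.0%).

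Hosts were set beside gene lists without a test of enrichment, since longer introns offer more room for sites. Sites per Mb were also higher in long introns, so a rate per Mb is not adjusted for the intron lengths of a list. The lists are partial, and each share is that of the list and not of the whole class. Hosts left out include dhc-4 from the cytoskeleton list, kcnl-2 from the ion channel list and mbk-2 from the kinase list. Of the 14382 autosomal protein-coding genes with eligible intron bases, 207 (1.44%) hosted a site, at 12.7 sites per Mb of eligible bases. In the list of kinase, G protein and second messenger genes, 17 of 86 were hosts (19.8%, 95% Wilson interval 12.7 to 29.4), at 47.3 sites per Mb. The strongest of them were daf-14, which encodes a Smad and no kinase, mpk-1, unc-43 (152) and tax-6, the calcineurin A gene (146). The unc-43 site had 84.0 in replicate 3 and 71.5 in replicate 4, and the tax-6 site had 112 in replicate 3 and no replicate 4 summit within 100 bp.

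In the insulin and starvation list 4 of 19 genes were hosts, with 66.7 sites per Mb: daf-16, hlh-30, the TFEB-like factor of the starvation response (94.4), daf-2, the insulin receptor gene (92.3), and akt-1, a kinase gene of the same pathway (79.8). The daf-2 site had rank 1215 in replicate 3 and 2947 in replicate 4, and the akt-1 site 2358 and 1573. In the pan-neuronal and synaptic list 6 of 36 were hosts, led by rbf-1, the rabphilin gene (129), unc-119 (121), cla-1, which encodes an active zone protein (115), and syd-1 (101). The syd-1 site had no replicate 4 summit within 100 bp, while those of rbf-1, unc-119 and cla-1 were among the strongest of both replicates. Of 9 heterochronic genes, lin-42, the Period relative that times larval development (95.1), and sea-2 (71.9) were hosts.

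In the list of transcription factor genes outside the homeobox and nuclear receptor families, 9 of 143 were hosts, at 38.02 sites per Mb. The strongest were mef-2, egl-27 (190), fkh-7 (148) and let-607 (126). That list leaves out daf-16, which is in the insulin and starvation list. Nuclear hormone receptor genes were hosts in 5 of 240 cases, nhr-46 (149), nhr-19 (128), nhr-88 (89.3) and nhr-34 (88.8) the strongest, and homeobox genes in 1 of 72, ceh-62 (86.9). Chromatin regulators were hosts in 2 of 83 cases, zfp-1 and let-526, with 6 sites between them.

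In the remaining lists with a host the share was 4.44% or less. These were axon guidance and adhesion (casy-1 and ptp-3), ion channels and transporters (unc-103 and osm-9), vesicle trafficking (unc-108, tbc-17, tbc-8 and rab-3), cytoskeleton and motors (klp-6 and tba-7), cell lineage genes (lin-42), collagens (col-72), RNA binding (larp-1) and chaperones (cct-5). At rab-3 the signal value was 66.1, with rank 2240 in replicate 3 and 9788 in replicate 4.

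The cytoskeleton list had at first taken in tbc-8 and tbc-17, and the chemoreceptor list some genes of other families with like names, and both were corrected after the hosts were seen. In 7 lists no gene was a host. They were 1267 chemoreceptor genes, which allows a share of up to 0.237%, 110 translation genes (up to 2.73%), 45 neurotransmitter receptor genes (up to 6.67%), 35 mitochondrial respiration genes (up to 8.57%), 34 muscle genes (up to 8.82%), 28 Wnt genes (up to 10.7%) and 14 gas-sensing neuron genes (up to 21.4%). Each limit is the share that 3 genes of the list would give, and only the chemoreceptor limit lies below the 1.44% of all genes. Chemoreceptor genes had 857 kb of eligible intron bases, and the 45 neurotransmitter receptor genes 168 kb.

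**Figure D5:**
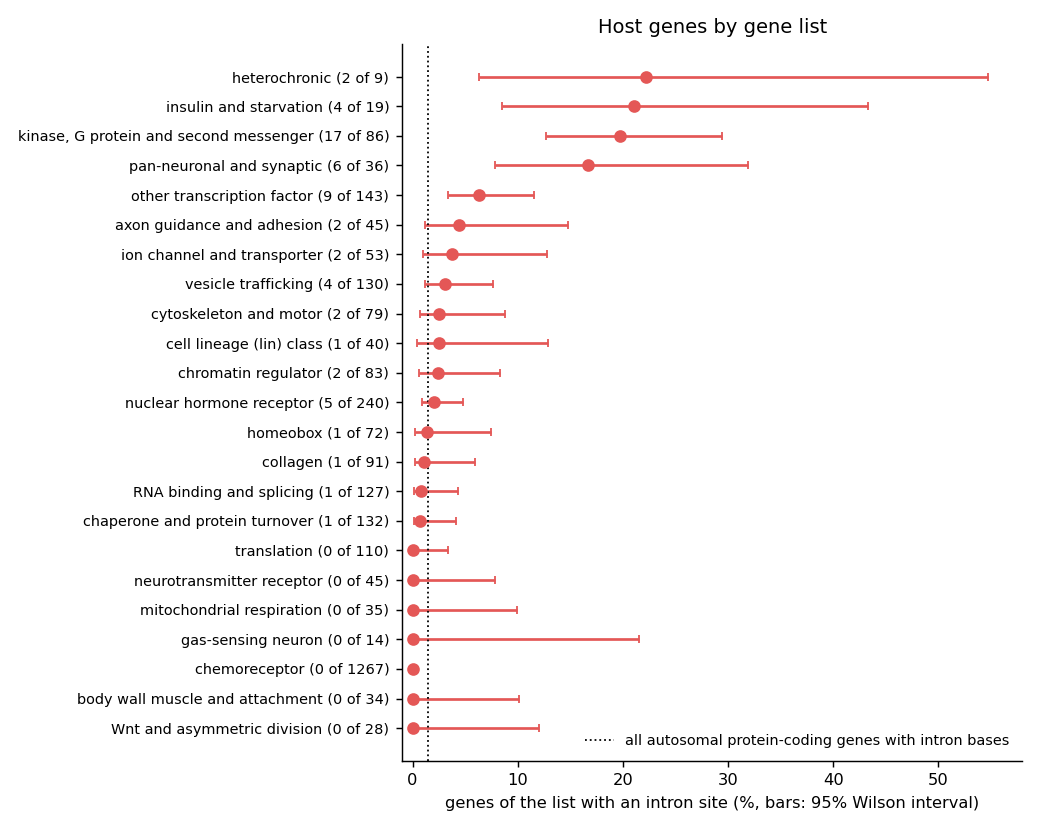
Points give the percentage of each gene list's autosomal members with eligible intron bases that hosted an intron site, with 95% Wilson intervals and the counts beside the names, and the dotted line marks the 1.44% of all such genes. The kinase list (17 of 86), the insulin list (4 of 19), the pan-neuronal list (6 of 36) and the heterochronic list (2 of 9) lay farthest to the right, and lists differ in how much intron they have.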

How the data were processed

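Both libraries came from 1 group. The authors deposited narrowPeak lists on ce11 and ce10, made with a control alignment per the deposited file descriptions: 30000 regions per replicate and for both pooled, and the optimal list of 2294 regions after an IDR threshold, IDR being a measure of reproducibility between ranked lists. For the peak caller, aligner and threshold, nothing was given in the sources used here. The signal value, a score deposited by the authors with each region, ranked regions within a list only. The deposited summit offset, of no other unit than bp, gave the summit. The ce10 lists were not used.

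Summits were classed against Ensembl release 115, promoter first, then exon, intron and intergenic, with protein-coding transcripts only. Eligible intron bases are autosomal gene-body bases outside exons and promoter windows. Intron number and length came from the longest transcript with an intron there. Weaker regions were pooled regions that no optimal region overlaps. Tests were two-sided: Fisher's exact and Mann-Whitney tests, adjusted by Benjamini-Hochberg over 11 comparisons, and exact McNemar tests adjusted over 10 motifs or 2080 hexamers. The hexamer, Fisher's exact and Mann-Whitney tests were run on simulated data with independent sites and hexamers. Real sites and overlapping hexamers are not independent, so those runs do not cover that. Tools were SciPy 1.17.1 and NumPy 2.4.6 under Python 3.11.15, with matplotlib 3.10.9 for figures. The members, lists and motifs were chosen with earlier results of these data known, and 2 gene lists were corrected after their hosts were seen. Genes named are hosts of the 20 strongest sites, up to 4 hosts per list, genes with 3 or more sites, hosts of the longest introns and those next to the limit of the list. The sequence of 1 further window is not reported here. Intervals and limits cover counting of sites or genes only.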

Additional observations from a re-analysis of the deposited data

How the results depend on the processing

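Results were recomputed under 17 other settings, 2 of them chosen after seeing the data (all transcripts of protein-coding genes, and only the strongest site of each host gene). All settings for intergenic sites, for noncoding genes against promoter sites and for lower hexamers were added then too, in all 54 of 233 values. Of 171 values with a direction 125 kept it and their side of the threshold, and of 62 counts and shares 32 stayed within 1.5 times the count or inside the share's 95% interval. No analysis paired between groups was possible because there was 1 group, and the only pairing was of each summit with its own flank. Each replicate's own list gave 288 to 294 intron sites, and all transcripts gave 285. The stronger 50% of the list held 119 sites (12.9% of its autosomal sites), the strongest regions of both replicates 173, and promoter windows of 500 and 2000 bp gave shares of 17.97% and 11.9%. The first-intron difference was 6.88 points without sites near tRNA, snoRNA or snRNA genes, 9.13 with the lowest intron number and −4.64 against the regions just below the list, where the length ratio was 1.08. The difference from promoter sites in recovery by both replicates was 0.0319 points in the stronger 50% and −5.95 with summits within 200 bp. It could not be computed with 1 replicate. The GC difference from promoter sites was 1.98 points in the stronger 50%, −1.98 without sites near those RNA genes, −6.93 on X and −3.92 with 25 bp to each side, and against intergenic sites it passed the threshold without replicate 4 (0.990 points, n = 288, Mann-Whitney test, adjusted p = 0.0253).

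Of 10 motifs, those called at the summit against the flank numbered 3 with either replicate alone, 2 in the stronger 50%, 3 without sites near those RNA genes, 3 with 25 bp to each side and 0 on X (exact McNemar test, 1 at an unadjusted p under 0.05, over 81 sites). These counts, other than the 0, include GACGCA, which was picked from these sites and is no independent call. Against promoter sites they numbered 0 to 2 with 1 replicate, 1 in the stronger 50%, 0 with sites in both replicates (Fisher's exact test, 2 unadjusted, as without replicate 3), 1 with a 2000 bp window (GACGCA) and 4 without sites near those RNA genes (GACGCA among them). Higher hexamers numbered 14 in the stronger 50%, 19 with sites in both replicates, 21 with a 2000 bp window, 27 without sites near those RNA genes, 9 with 25 bp to each side and 38 with 1 site per gene. The share of hosts with a promoter site was 16.8% in the stronger 50%, 18.03% with a 500 bp and 32.1% with a 2000 bp window. The GAGAGA strand difference from 50% was −15.7 to −11.8 points with 1 replicate, −18.2 with sites in both and −13.2 with a 500 bp window. In the settings not named here it was −13.9 to −10.3 points and not past the threshold. Against intergenic sites, differences not past the threshold changed sign: the signal ratio was 0.991 to 1.02 with 1 replicate (1.02 without replicate 3) and 1.05 with sites in both replicates, and the recovery difference was 2.50 points in the stronger 50% and 0.309 with summits within 200 bp. The causes were not tested. Depth is unknown, so a site absent from 1 replicate cannot be told from one missed there.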
